A study of Homo sapiens with 18 samples.

Results

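The mitochondrial ribosome holds a large set of proteins that are encoded in the nucleus, translated on cytosolic ribosomes and imported into mitochondria. There they join the mitochondrial rRNAs in a large subunit, which forms peptide bonds, and a small subunit, which reads the mRNA. The complete ribosome translates the mRNAs of mitochondrial DNA, which encode core subunits of the respiratory chain. The genes described here are all those named MRPL (large subunit) or MRPS (small subunit) followed by a number, with or without a final letter A to C, in the table of cytoplasmic and polysomal RNA. The rule found 78 genes, 49 MRPL and 29 MRPS, of 15747 in that table, and the same 78 symbols are in the table of whole-cell RNA, which holds 44682 genes.

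The samples were DU145 cells, an established androgen receptor-negative line from metastatic prostate carcinoma, given GC7 at 40 µM for 24 h or vehicle only. GC7 is an inhibitor of DHPS (deoxyhypusine synthase), which starts the placing of hypusine on eIF5A, a translation factor that helps ribosomes past slow peptide bonds, above all in runs of proline. RNA came from whole cells, from cytoplasm and from heavy polysomes, with 3 GC7 and 3 vehicle libraries of each, 18 in all. Per the labels' protocols, cells of the fractions received emetine, nuclei and then mitochondria were pelleted, and the lysate was run on sucrose gradients. The study asked, per its design text, how blocking hypusination changes mRNA abundance and ribosome loading.

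The values are the authors' deposited comparison tables, which hold no value per library, so depth per library is unknown and no SD is printed. Whether replicates were separate cultures is not in the labels, and the p-values then measure only how far these libraries spread, possibly for technical reasons. Neither table states its numerator. In the fraction table the category "UP" was taken to mean higher with GC7, and the whole-cell sign was turned, because all 13 mitochondrially encoded mRNAs are positive there as deposited and negative in both fractions. Under the opposite reading every direction below turns round. Of the marker genes, 6 of 6 epithelial ones are in the fraction table and 4 of 8 markers of other cells, of which COL1A1 was highest with a mean normalized count of 62.5 in cytoplasm. In bulk RNA a lower value from fewer cells and one from less RNA per cell cannot be told apart.

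Runs of at least 3 proline codons in frame, the sequence feature tied to eIF5A, are shown first because they are the sequences at which hypusinated eIF5A is best known to act. Of the 78 genes, 11 (14.1%) hold such a run in the GENCODE 44 reference transcript (MANE Select), against 26.3% of 12776 annotated genes. The reference coding sequence (GRCh38) of 4 of them is printed as examples, with the proline codons in capitals and 3 codons on each side. Among those shown, MRPL44 and MRPS30 have runs of 4 codons, MRPL51 is the only gene of the 11 that changed in polysomes, and MRPS18B has the highest cytoplasmic value among the 11.
MRPL44, chromosome 2, run of 4 codons from codon 54: ctgcggtgcCCGCCGCCGCCCgtgcgccgt
MRPS30, chromosome 5, run of 4 codons from codon 119: tcgggtctgCCGCCGCCCCCAgcggagccc
MRPL51, chromosome 12, run of 3 codons from codon 39: ctcactctcCCGCCCCCCaaagtggtt
MRPS18B, chromosome 6, run of 3 codons from codon 230: gagagtggcCCCCCACCTgagtcaatg
By coding length, 5.13% of the 39 genes with the shorter coding sequences hold a run, against 8.52% of all 1502 annotated genes of that length range, and 23.1% of the 39 longer ones do, against 17.5% of 4395.

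With GC7, mitoribosomal mRNAs in heavy polysomes were mostly somewhat below vehicle. At the threshold used throughout for the fractions, a deposited adjusted p under 0.05, 10 of the 78 fell and 1 rose in the authors' deposited table. Over all 15747 genes the same table calls 5.48% lower and 5.61% higher. The median log2 fold change was -0.12 over the 78 genes as deposited, against -0.00494 over all genes, and 61 of the 78 (78.2%) were negative, against 51.5% of all genes. The deposited fold changes are pulled towards 0, so values of single genes below are unshrunken log2 fold changes of GC7 over vehicle with their SE, recovered from the deposited p-values; their median was -0.17 over the 78 genes and -0.01 over all genes. The changes were small: all 78 genes are in the authors' category without significance, which asks for a log2 fold change over 1 in size.

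Of the 49 MRPL genes, 7 fell in polysomes and 1 rose. MRPL14, a protein of the face that meets the small subunit (chr6:44113451-44127452), was at 67.4% of vehicle, -0.57 ± 0.15, with an adjusted p of 0.00498 in the authors' deposited table. MRPL51 and MRPL50 have no bacterial counterpart. MRPL51 (chr12:6491886-6493841) was at -0.56 ± 0.16, with an adjusted p of 0.00738 in the authors' deposited table. MRPL50 (chr9:101387633-101398618) was at -0.53 ± 0.14, with an adjusted p of 0.00436 in the authors' deposited table. These 3 genes were at about the same size of response, with SEs that overlap.

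MRPL27, the counterpart of a bacterial protein that reaches towards the peptidyl transferase centre (chr17:50367857-50373207), was at -0.48 ± 0.17, with an adjusted p of 0.0364 in the authors' deposited table. MRPL16, a protein near the tRNA sites (chr11:59806140-59810778), was at -0.46 ± 0.14, with an adjusted p of 0.0179 in the authors' deposited table. MRPL13, a structural protein with a bacterial counterpart on chromosome 8, was at -0.48 ± 0.16, with an adjusted p of 0.0361 in the authors' deposited table. Proteins at the polypeptide exit went both ways. MRPL23 (chr11:1947278-1984522) was at -0.47 ± 0.16, with an adjusted p of 0.0387 in the authors' deposited table. MRPL24 (chr1:156737303-156741590) was the gene that rose, to 131% of vehicle, 0.39 ± 0.14, with an adjusted p of 0.0434 in the authors' deposited table. The other 6 exit proteins did not pass the test and lay between -0.22 ± 0.16 (MRPL44) and 0.19 ± 0.14 (MRPL47).

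Of the 29 MRPS genes, 3 fell in polysomes and none rose. MRPS6 (chr21:34073224-34143034), the counterpart of a bacterial platform protein, had the lowest value of the 78, 63.2% of vehicle or -0.66 ± 0.15, with an adjusted p of 0.000662 in the authors' deposited table. MRPS12 (chr19:38930944-38933168), the protein at the decoding site, was at -0.42 ± 0.15, with an adjusted p of 0.0464 in the authors' deposited table. MRPS25 (chr3:15009611-15065339), which has no bacterial counterpart, was at -0.44 ± 0.15, with an adjusted p of 0.0434 in the authors' deposited table. The 3 highest MRPS genes did not pass: MRPS9 was at 0.59 ± 0.25, MRPS30 at 0.34 ± 0.13 and MRPS31 at 0.33 ± 0.21. Their adjusted p-values were 0.109, 0.065 and 0.385 in the authors' deposited table. MRPL2 did not pass either and lay between MRPS9 and MRPS30 at 0.36 ± 0.19, with an adjusted p of 0.249 in the authors' deposited table. MRPS9 thus had the largest positive value of the 78 and a wide error. Just outside the threshold on the lower side stood MRPL20 at -0.39 ± 0.15, with an adjusted p of 0.0814 in the authors' deposited table.

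**Figure D1:**
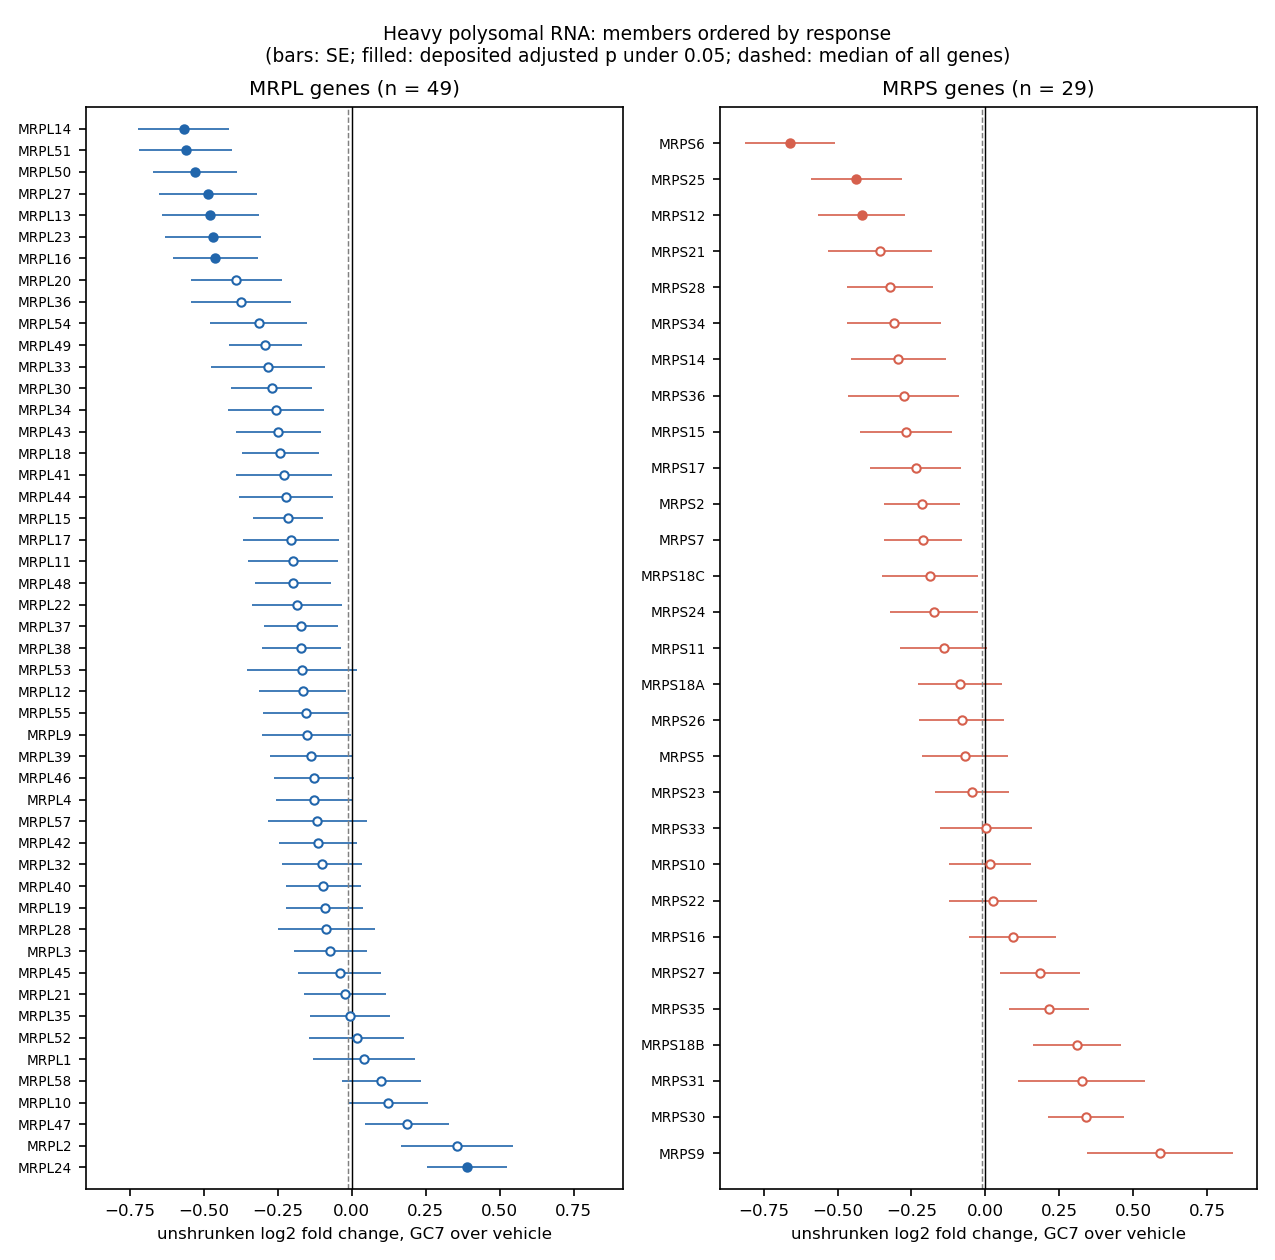
Unshrunken log2 fold change of GC7 over vehicle in heavy polysomes (x axis) for the 49 MRPL genes (left) and the 29 MRPS genes (right), ordered by value, with bars of 1 SE; filled points have a deposited adjusted p under 0.05. Filled points lie at the negative end, from MRPS6 at -0.66 and MRPL14 at -0.57 on, except MRPL24 at 0.39; the dashed line is the median of all genes.

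The subunits were compared by their medians, as a description. As deposited, the polysomal median was -0.13 over MRPL and -0.10 over MRPS genes, a difference of -0.0295, well inside the median SE of one gene (0.13). Of the MRPL genes 42 of 49 were negative (85.7%), and of the MRPS genes 19 of 29 (65.5%). In cytoplasm the deposited medians were -0.05 over MRPL and -0.04 over MRPS genes, and in whole cells 0.03 and 0.05, again for MRPL and then MRPS. None of these differences between subunits reached the median SE of one gene. No SE is given for whole cells, where 0.567 was used. The SE of one gene is not the error of a difference between medians, so this does not show that the subunits responded alike. Symbol and subunit do not always match: MRPS30 and MRPS18A sit in the large subunit, and MRPS36 is now counted with the 2-oxoglutarate dehydrogenase complex. With subunits assigned by structure (52 large and 30 small, with the proteins without an MRP number added), the polysomal difference was -0.0022.

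**Figure D2:**
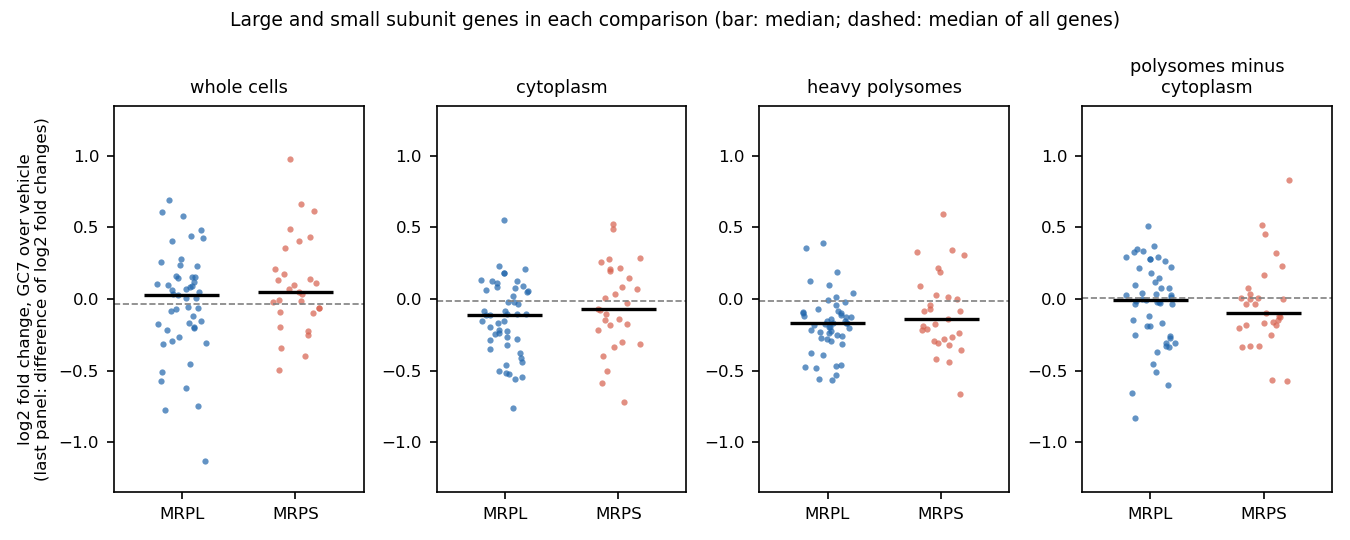
Log2 fold change of GC7 over vehicle for each MRPL (left) and MRPS gene (right) in whole cells, cytoplasm and heavy polysomes, and the difference of polysomes minus cytoplasm; black bars are medians, dashed lines medians of all genes, and the values are unshrunken in the fractions and as deposited in whole cells. For whole cells the dashed line is the median of the 14099 genes in both tables. The polysomal medians, -0.17 for MRPL and -0.14 for MRPS genes, both lie below that of all genes, and the clouds of the 2 subunits overlap in each panel.

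Grouped by place in the ribosome, the polysomal medians lay between -0.19 and 0.06, and differences between places were not tested. The 4 genes of the mRNA entry and decoding region (MRPS2, MRPS5, MRPS12 and MRPS24) were all negative, with a median of -0.19, and 1 fell. The 9 genes of the central protuberance, the crown of the large subunit, had a median of -0.15, and 1 of them, MRPL27, fell. The 5 genes of the stalk that recruits translation factors ran from -0.31 ± 0.16 (MRPL54) to 0.12 ± 0.13 (MRPL10), and none passed. Genes of the small subunit's head and foot had medians near 0, at 0.01 over 6 genes and 0.06 over 4. The 48 proteins with a bacterial counterpart had a median of -0.19, with 7 lower (14.6%) and 1 higher. The 30 found only in mitochondria had a median of -0.13, with 3 lower (10.0%). Over all genes 5.48% were called lower and 5.61% higher, and 15.7% were lower among annotated genes of 195 to 585 coding bases. These counts by place and origin were not matched for length and do not set a class apart. Among the 30, the 19 MRPL genes had a median of -0.17 and the 11 MRPS genes one of 0.00202, a contrast by symbol that was not tested. These 11 include MRPS30 and MRPS36, and their median coding length was 654 bases, against 498 for the 19. Among the 48, the order was the other way, with medians of -0.18 over 30 MRPL genes and -0.20 over 18 MRPS genes.

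In cytoplasmic RNA no mitoribosomal gene passed that threshold in the authors' deposited table, which calls 1.95% of all genes lower and 2.29% higher. Without adjustment, 4 had a p under 0.05 and were lower, and 2 were higher, against 1281 lower and 1151 higher of all 15747 genes in the authors' deposited table. The members' shares at this looser threshold were thus below those of all genes. The median of the unshrunken values was -0.11 over the 78 genes and -0.01 over all genes, and 49 of 78 were negative. The smallest adjusted p in the authors' deposited table belonged to MRPL27, at -0.46 ± 0.17 close to its polysomal -0.48 ± 0.17. The next 2 were positive. MRPL33 was at 0.55 ± 0.21 and MRPS18B at 0.49 ± 0.19, with adjusted p-values of 0.138 and 0.139 in the authors' deposited table. The median SE was 0.147 in polysomes and 0.218 in cytoplasm over the 78 genes, and 0.191 in polysomes and 0.290 in cytoplasm over all genes.

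In whole-cell RNA no mitoribosomal gene passed the authors' deposited p under 0.05 even before adjustment, against 1.04% of the 14099 genes in both tables called lower and 2.08% higher. After Benjamini-Hochberg adjustment over all 44682 genes the smallest p of any gene was 0.642. The median log2 fold change was 0.03 over the 78 genes and -0.04 over the 14099 genes in both tables, and 35 of 78 were negative. The 6 genes with the smallest p pointed both ways. MRPL10, a stalk protein, was at 0.69 with an unadjusted p of 0.0852 in the authors' deposited table. MRPL36 was at -0.62 (p = 0.121), MRPS16 at 0.62 (p = 0.159) and MRPL58, a peptidyl-tRNA hydrolase built into the ribosome, at 0.61 (p = 0.175), all unadjusted in the authors' deposited table. MRPL23 was at -1.13 (p = 0.186) and MRPL2 at 0.58 (p = 0.215), unadjusted in the authors' deposited table. MRPL23 is also one of 5 genes with numbered copies of their symbol in the whole-cell table, with MRPS36, MRPS18B, MRPS12 and MRPL45, and whole-cell values of these 5 are uncertain.

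Polysomal and cytoplasmic responses were then compared gene by gene, as the difference of the unshrunken log2 fold changes, which asks whether ribosome loading changed beyond abundance. By a normal test, adjusted over all genes after Benjamini-Hochberg, 0 of 15745 genes passed (0% lower and 0% higher), with no adjusted p below 0.999. Before adjustment, 5 of the 78 genes had a p under 0.05 and were lower and 0 were higher (6.41%), against 165 lower and 173 higher over all genes (2.15%). All 5 are among the 39 genes at or under the set's median coding length of 585 bases (12.8% of the 39). Over 1501 annotated genes of that length range, 61 were lower and 3 higher (4.26%). The widest gap was in MRPL33, the counterpart of a small bacterial protein, at -0.83 ± 0.29, with a 95% interval from -1.40 to -0.27. MRPL13 was at -0.66 ± 0.23, with an interval from -1.10 to -0.21. MRPL36 (-0.60 ± 0.30), MRPS14 (-0.57 ± 0.25) and MRPL50 (-0.51 ± 0.23) followed. MRPS31 had the highest value, 0.83 ± 0.45, with a 95% interval from -0.06 to 1.72. Of the 5 lower genes, MRPL13, MRPL33, MRPL36 and MRPS14 were negative in polysomes and positive in cytoplasm and MRPL50 was negative in both, whereas MRPL14 had close values in both, -0.57 ± 0.15 in polysomes and -0.55 ± 0.24 in cytoplasm.

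The errors of the 2 fractions were taken as independent; with a correlation of 0.5 between them, MRPL13 and MRPL33 passed, with adjusted p-values of 0.0408 and 0.0412 by the normal test, among 25 genes in all. The exact correlation cannot be read from tables without libraries. With independent errors, 2.15% of all genes had an unadjusted p under 0.05 by the normal test. That is below the share of 0.05 that this threshold gives when nothing changes, so the test was probably too strict. With a correlation of 0.5, 1345 of 15745 genes did. That no gene passed with independent errors therefore does not show that loading was unchanged.

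**Figure D3:**
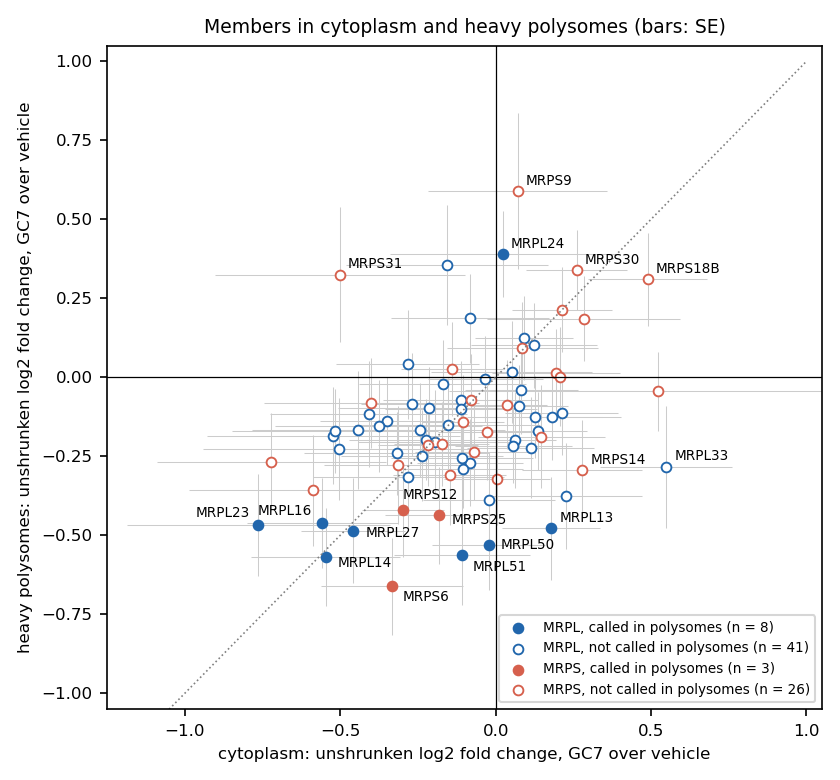
Unshrunken log2 fold change of GC7 over vehicle in heavy polysomes (y axis) and in cytoplasm (x axis) for the 78 genes, with bars of 1 SE and a dotted line of equal response; filled points have a deposited adjusted p under 0.05 in polysomes. MRPL14, MRPL16, MRPL27 and MRPL23 lie at about -0.46 or lower on both axes. MRPL13, MRPL50, MRPL51 and MRPL24 were called in polysomes and had cytoplasmic values between -0.11 and 0.18. The called MRPS6, MRPS12 and MRPS25 were at -0.33, -0.30 and -0.18 in cytoplasm. With errors taken as independent, no gene differed between the fractions after adjustment.

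Among the 78 genes the polysomal response ran with coding length. Mitoribosomal coding sequences are short, with a median of 585 bases (195 to 1317), against 1401 over 12776 annotated genes. Of the 39 genes at or under 585 bases, 36 (92.3%) were negative in polysomes and 9 (23.1%) fell, with a median of -0.26. All 1502 annotated genes in that length range had a median of -0.18, with 72.2% negative and 15.7% called lower. Of the 39 longer genes, 1 fell (MRPL16) and 1 rose (MRPL24), with a median of -0.09, against -0.04 over 4395 genes of that range. Of these longer genes 64.1% were negative, against 54.5% of the 4395. The share of lower calls was thus 12.8% over the 78 genes and 5.48% over all genes, and, among the longer genes of the same length range, 2.56% against 6.69%.

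Across the 78 genes, Pearson's r between log2 coding length and the polysomal log2 fold change was 0.519 and Spearman's rho 0.539, which describes genes measured in the same libraries. Within MRPL genes r was 0.396 (n = 49) and within MRPS genes 0.654 (n = 29), and over all annotated genes it was 0.127. The last r is over coding lengths of 75 to 26780 bases, against 195 to 1317 for the 78 genes. It was not computed within the members' length range, so these r values are not like for like. In cytoplasm the same correlation over the 78 genes was 0.078. The highest MRPS values (MRPS9, MRPS30 and MRPS31) all belong to long genes of the set, with 1188, 1317 and 1185 coding bases. The polysomal median was -0.17 over the 11 genes with a proline run and -0.17 over the 67 without. In cytoplasm the medians were 0.08 with a run and -0.11 without, and for polysomes minus cytoplasm -0.17 and -0.01. Genes with a run were longer, with a median of 774 coding bases against 564. The 2 groups were not matched for length, and their differences were not tested.

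**Figure D4:**
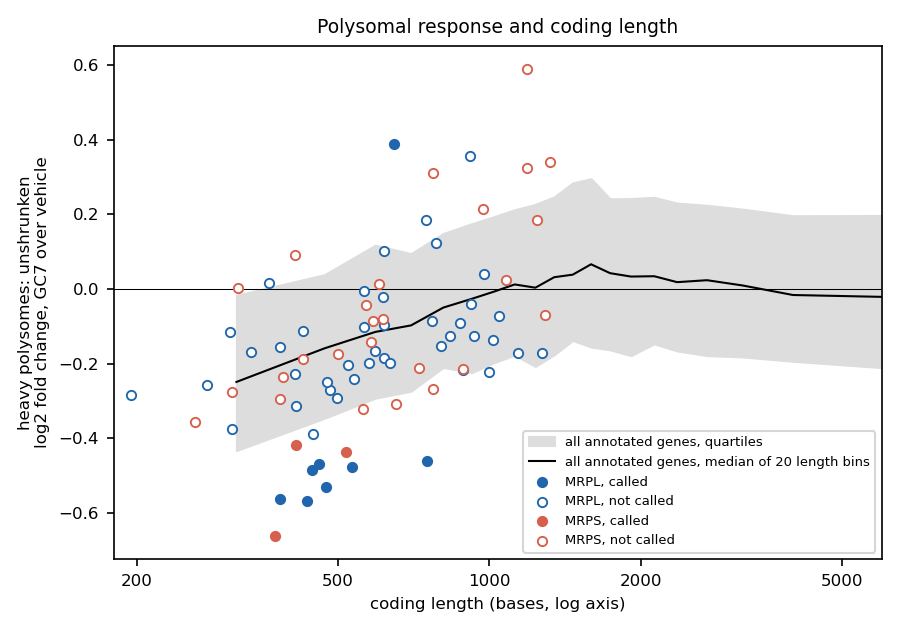
Unshrunken log2 fold change of GC7 over vehicle in heavy polysomes (y axis) against coding length in bases (x axis, log scale) for MRPL and MRPS genes, filled where the deposited adjusted p was under 0.05; the line and band are the median and quartiles of all annotated genes in 20 length bins. Shorter genes lie lower, among the 78 genes and among all genes, with 9 of the 10 genes that fell at or under 585 bases.

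Mitoribosomal mRNAs were abundant. Levels are given as the authors' mean normalized count per kilobase of the reference transcript, 1 value per fraction that is not split by treatment. Over the 78 genes the median was 2880 in polysomes and 2102 in cytoplasm, against 225 and 153 over all annotated genes, and 77 of 78 were above the median of annotated genes in polysomes. MRPS24, at the mRNA entry, led with 12730 per kilobase in polysomes. MRPS21 had 11690, MRPL12, the stalk protein that touches translation factors, 11500, and MRPL33 10230 per kilobase in polysomes. MRPL51 (8676) and MRPL24 (8369) came next, so a gene that fell and the one that rose were both among the 6 highest in polysomes. MRPS31, at 219 per kilobase, was the lowest of the 78 in polysomes. The log2 ratio of the polysomal to the cytoplasmic mean count, from fractions normalized separately, had a median of 0.42 over the 78 genes and 0.50 over all genes, with MRPL37 highest at 1.46 and MRPS31 lowest at -0.79.

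Other genes of mitochondrial translation were counted beside the mitoribosomal proteins. Of 19 translation factors 18 were measured, and in polysomes 4 rose and 0 fell in the authors' deposited table, which calls 5.61% of all genes higher and 5.48% lower there. In cytoplasm 4 rose in the authors' deposited table, which calls 2.29% of all genes higher. MTIF2, the initiation factor that brings the first tRNA, was at 0.90 ± 0.14 in polysomes and 0.67 ± 0.21 in cytoplasm, with adjusted p-values of 3.43e-08 and 0.0319 in the authors' deposited table. GFM2, which splits used ribosomes, was at 0.51 ± 0.16 in polysomes and 0.72 ± 0.21 in cytoplasm, and GUF1, an elongation factor of the LepA family, at 0.51 ± 0.14 in polysomes and 0.70 ± 0.22 in cytoplasm; all of these passed in the authors' deposited table. OXA1L, which inserts new chains into the inner membrane, rose in polysomes (0.37 ± 0.13), and GFM1, the translocase, rose in cytoplasm (1.17 ± 0.30), each in the authors' deposited table.

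Of the 27 assembly factors, 2 rose and 2 fell in polysomes and 1 fell in cytoplasm, in the authors' deposited table. The 7.41% of them called in each direction in polysomes is near the 5.48% lower and 5.61% higher of all genes, so the count itself does not set them apart; in cytoplasm 1.95% of all genes were lower. TFB1M, an rRNA methyltransferase of the small subunit, was at 0.66 ± 0.18 and GTPBP10, a GTPase of large subunit assembly, at 0.65 ± 0.16 in polysomes. RCC1L was at -0.41 ± 0.13 in polysomes and -0.57 ± 0.13 in cytoplasm, lower in both in the authors' deposited table. MALSU1, which binds MRPL14 on the assembling large subunit, fell in polysomes (-0.44 ± 0.16), as MRPL14 itself did. Of 5 mitoribosomal proteins whose symbol holds no MRP number, DAP3 of the small subunit's head rose in polysomes (0.39 ± 0.12) and CHCHD1 fell (-0.60 ± 0.17), with adjusted p-values of 0.0187 and 0.00876 in the authors' deposited table. The RNAs that the mitoribosome translates had far larger fold changes than its proteins' mRNAs: 12 of 13 mitochondrially encoded mRNAs fell in each fraction in the authors' deposited table, with medians of -4.30 in polysomes and -3.79 in cytoplasm. Mitochondria had been pelleted from these lysates, and what part that had in the mitochondrial RNA values was not tested.

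**Figure D5:**
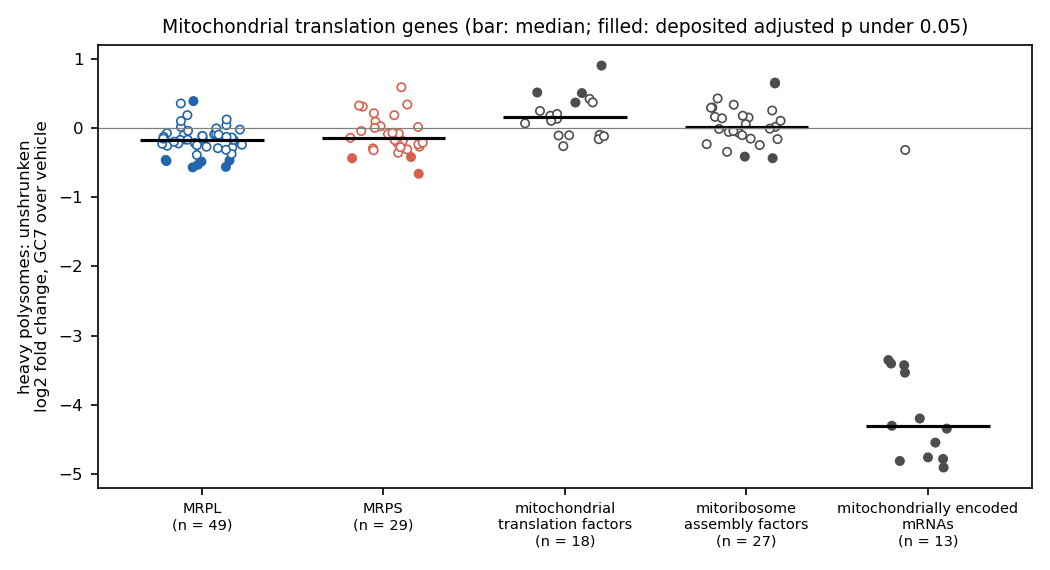
Unshrunken log2 fold change of GC7 over vehicle in heavy polysomes (y axis) for MRPL and MRPS genes, mitochondrial translation factors, mitoribosome assembly factors and mitochondrially encoded mRNAs; filled points have a deposited adjusted p under 0.05 and bars are medians. The mitoribosomal medians, -0.17 and -0.14, lie just below 0, that of the translation factors at 0.16, and that of the mitochondrially encoded mRNAs at -4.30.

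Promoters were searched for 3 motifs of factors known for genes of mitochondria and ribosomes, in 250 bases before the start of 69 of the 78 genes with an entry in RefSeq (GRCh38.p14), on both strands. The ETS core CCGGAAG, bound by GABPA, was in 33.3% of the 69, against 15.7% of 11138 promoters of measured genes. The NRF1 motif GCGCANGCG was in 18.8%, against 12.9%, and the YY1 motif AAGATGGCG in 4.35%, against 1.1%. A match describes letters only and says nothing of binding. As examples of matches, 2 promoters are printed with them in capitals, chosen after the values were seen among genes with a match whose start is the same in both annotations: MRPL20, with 1 NRF1 and 2 ETS matches, and MRPS9, with 1 NRF1 match. MRPL50, MRPL16 and MRPS12, which fell in polysomes and have the same start in both annotations, hold none of the 3 motifs in this window. Of the other genes that fell, MRPL13 and MRPL23 are not among the 69 and were not searched. The rest have starts that differ between the annotations. Of these, MRPL14 holds an NRF1 match, MRPL27 and MRPL51 hold ETS matches, and MRPS6 and MRPS25 hold none.
MRPL20, chr1:1407294-1407543, minus strand: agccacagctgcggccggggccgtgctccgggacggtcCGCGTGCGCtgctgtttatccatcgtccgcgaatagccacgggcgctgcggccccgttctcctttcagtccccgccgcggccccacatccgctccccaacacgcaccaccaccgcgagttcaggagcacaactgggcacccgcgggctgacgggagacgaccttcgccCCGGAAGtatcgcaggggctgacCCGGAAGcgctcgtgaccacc
MRPS9, chr2:105037819-105038068, plus strand: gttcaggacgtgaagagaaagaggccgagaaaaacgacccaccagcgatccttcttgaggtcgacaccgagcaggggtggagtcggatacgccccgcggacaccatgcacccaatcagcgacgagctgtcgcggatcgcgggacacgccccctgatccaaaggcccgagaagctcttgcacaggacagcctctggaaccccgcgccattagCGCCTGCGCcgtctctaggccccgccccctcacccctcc

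Some mitoribosomal genes share exon bases with a neighbour, and whether reads were counted by strand is not given in the sources used here. This touches 39 of the 78 genes, 29 of them with a gene on the other strand. Among the 11 genes called in polysomes it touches 5, MRPL13 with MTBP, MRPL23 with MRPL23-AS1, MRPL51 with NCAPD2, MRPS25 with NR2C2 and MRPS6 with SLC5A3. MRPS25 shares the most with a coding gene, 7157 of 18309 exon bases, and MRPL13 the least, 3 of 4209. Values of these 5 genes may hold reads of the neighbour.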

How the data were processed

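RNA of DU145 cells with GC7 or vehicle was analysed from the authors' 2 deposited comparison tables, with groups from the labels. The build GRCh38, Salmon 1.4.0 and STAR 2.7.8a are named per the submitters' processing notes; their roles are not given in the sources used here. For each fraction one table holds, per the file headers, mean normalized counts (not raw counts), log2 fold changes, their SEs, and p-values before and after adjustment, besides a category. The other table holds whole-cell RNA: log fold changes per the file headers, taken as log2 from the steps between low values, and p-values without adjustment.

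Divided by their SEs, the deposited log2 fold changes of the fractions do not return the deposited p-values and were taken as shrunken. The scale of a Cauchy prior (natural log) that returns them was estimated as 0.197 for cytoplasm and 0.203 for polysomes, and unshrunken values were computed with it with Python 3.11.15, numpy 2.4.6, scipy 1.17.1 and pandas 2.3.3. Recovered and deposited z differed by under 0.1 in 99.72% of genes in cytoplasm and 99.78% in polysomes. The difference between fractions leaves out 2 genes where they differed by over 0.5. That difference was tested with a normal test, errors taken as independent, and Benjamini-Hochberg adjustment over all genes. These steps were tested on simulated data. Coding lengths, positions and proline runs come from MANE Select transcripts of GENCODE 44, promoters from RefSeq.

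The members and lists were chosen with earlier results of these data known, so no p is given over a list. Lists of factors and places in the ribosome were written by hand from general knowledge. Named genes were the members called in a fraction, the 6 with the smallest p elsewhere, the 3 highest and lowest per subunit in polysomes, the 6 with the highest level per kilobase, called genes of the pathway lists, and members whose subunit differs from their symbol. Genes printed for a proline run or promoter, and those named just outside a threshold or at the ends of a group, were chosen after their values were seen. Some items are not reported here.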

Additional observations from a re-analysis of the deposited data

How the results depend on the processing

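Of 53 alternative settings, 47 left the counts of called genes within 1.5 times, or the contrast between subunits within the median SE of one gene, and 6 did not. All 78 genes had a mean normalized count of at least 100, so the filter on that count could not change the members counted. The limit on the contrast was wide, 0.567 in whole cells and 0.265 in polysomes minus cytoplasm. The count of 47 therefore does not measure how stable the results are. With the threshold on the deposited adjusted p at 0.01, 4 genes of the authors' deposited table were lower in polysomes (MRPS6, MRPL14, MRPL50 and MRPL51) and 0 higher. With it at 0.1, 2 genes of the authors' deposited table were higher in polysomes, and 2 were higher when the proteins without an MRP number were added. In whole cells 1 gene, MRPL10, was higher at an unadjusted p under 0.1. With a correlation of 0.5 between the errors of the fractions, 2 genes were lower in polysomes minus cytoplasm. The MRPL minus MRPS median ranged over the alternatives from -0.1239 to -0.001 in whole cells, from -0.0419 to -0.0013 in cytoplasm, from -0.0609 to -0.0022 in polysomes and from -0.0004 to 0.0883 in polysomes minus cytoplasm.

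No paired analysis was possible because the tables hold no values per library, and for the same reason no replicate was left out and no count test or other normalization was run. The fits behind the deposited p-values, their covariates and any batch are not given in the sources used here. The median SE of the 78 genes was 0.147 in polysomes and 0.218 in cytoplasm.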

Other observations

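Short coding sequences were lower in polysomes with GC7 beyond the mitoribosomal genes. Over all annotated genes in 20 bins of coding length, the median unshrunken polysomal log2 fold change was -0.25 in the shortest bin (median length 315 bases, 643 genes), -0.16 in the next (471 bases, 635 genes), and lay between -0.03 and 0.07 in the bins with median lengths from 921 bases up. The polysomal log2 fold change of the 78 mitoribosomal genes had a Pearson's r of 0.353 with the cytoplasmic one, against 0.619 over all annotated genes, and of 0.37 with the whole-cell one, against 0.433; these describe genes of the same libraries. GC content of the coding sequence had an r of -0.163 with the polysomal value over the 78 genes.

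The mitochondrial rRNAs, with which these proteins assemble, had more negative values in cytoplasm than in polysomes. Polysomes minus cytoplasm was 2.43 for MT-RNR1 and 1.56 for MT-RNR2. Both had an unadjusted p under 0.05 by the normal test, and neither passed after adjustment over all genes. MT-RNR1, of the small subunit, was at -0.11 ± 0.50 in polysomes and -2.54 ± 0.39 in cytoplasm, with adjusted p-values of 0.932 and 1.9e-08 in the authors' deposited table. MT-RNR2, of the large subunit, was at -1.47 ± 0.47 in polysomes and -3.03 ± 0.41 in cytoplasm, with adjusted p-values of 0.0251 and 7.49e-11 in the authors' deposited table. The one mitochondrially encoded mRNA that passed in neither fraction was MT-ND6, at -0.32 ± 0.36 in polysomes and -0.67 ± 0.24 in cytoplasm, with adjusted p-values of 0.664 and 0.0868 in the authors' deposited table.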
